A study of Homo sapiens with 4 samples.

Results

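PTP4A1, PTP4A2 and PTP4A3 are the 3 genes of the PRL family of tyrosine phosphatases, and they are described here in a human myeloma cell line with and without knockdown of ILF2. The family was selected on the log2 fold change of PTP4A3 in this same comparison, where it fell, so the values of PTP4A1, PTP4A2 and PTP4A3 between groups are given as a description and support nothing by themselves. They are 3 of 63677 genes in the files, matched by Ensembl gene ID, and all 3 were among the 19142 genes that passed the filter on low counts. H929 is an established line of malignant plasma cells, grown in RPMI medium. One group was transduced with a non-silencing short hairpin RNA (shRNA). The other received shRNA against ILF2, the gene of a protein that binds double-stranded RNA. For each group 2 libraries of total RNA, depleted of ribosomal RNA, were analysed. From the library names in the file headers it is unknown if 1 ILF2 hairpin or a pair of them was used, so the spread in that group may include a difference between hairpins. The labels give no dose, time after transduction or hairpin sequence, and they do not say whether single clones or pooled cells were taken. The effect of losing ILF2 and any other effect of the hairpin cannot be told apart here.

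PRL phosphatases are small enzymes that resemble dual-specificity phosphatases in their fold and carry the cysteine and arginine of the tyrosine phosphatase catalytic loop. They end in a CaaX box, a signal for the attachment of a prenyl lipid, and this holds them at membranes. They bind the CNNM proteins, which control magnesium transport, and the product of PTP4A3 is known as a phosphatase of invasive tumours that is also expressed in malignant plasma cells.

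The stretches that code for these features are shown for PTP4A1 and PTP4A2, since they define the family. The sequences were taken from the GENCODE transcripts of release 44 on GRCh37 and run 5′ to 3′ along the gene's strand. In the catalytic loop the capitals mark the codons of the catalytic cysteine and arginine. The loop lies on 2 exons in both genes, at chr6:64288902-64289174 (plus strand) and chr1:32375701-32377328 (minus strand), with the intron left out.
PTP4A1 catalytic loop: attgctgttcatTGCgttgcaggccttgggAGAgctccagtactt
PTP4A2 catalytic loop: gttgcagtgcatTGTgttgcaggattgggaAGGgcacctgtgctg
In the last 30 coding bases the capitals mark the codons of the CaaX box, at chr6:64290047-64290076 and chr1:32374456-32374485.
PTP4A1 end: aacggtcatagaaacaacTGTTGCATTCAA
PTP4A2 end: agagataccaatgggcatTGCTGTGTTCAG
The whole coding sequences of PTP4A1 (519 bases) and PTP4A2 (501 bases) were identical at 76.6% of aligned bases. PTP4A3, with 519 coding bases, was 69.0% identical to PTP4A1 and 68.1% to PTP4A2, so reads of the 3 genes can be told apart over most of their length.

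The libraries held 63459322 to 72977082 counted fragments, and in bulk RNA a lower share of expressing cells and less RNA per cell cannot be told apart. ILF2 itself stood at 717 and 733 CPM (fragments per 1000000 counted, scaled by edgeR's TMM factors) in the non-silencing libraries and at 107 and 114 CPM in the ILF2 shRNA libraries. The 10 plasma cell marker genes examined were all detected, with summed levels of 12698 and 13000 CPM in the non-silencing libraries and 14917 and 15026 CPM with ILF2 shRNA. Most of that difference is JCHAIN, the joining chain gene, at 5594 and 5937 against 7682 and 7594 CPM. By edgeR 5 of the 10 rose (JCHAIN, MZB1, CD38, TNFRSF17 and POU2AF1) and 2 fell, SDC1 by 0.24 and SLAMF7 by 0.26 on the log2 scale. That is 70% of the markers, beside 20.3% of all tested genes, at an adjusted p under 0.05. POU2AF1 lost its call when the replicate number was added to the fit. The same held when either non-silencing library or ILF2 shRNA replicate 1 was left out. The part of these marker changes in the results on PTP4A genes was not tested. Summed levels of erythroid and fibroblast markers stayed at or below 0.204 CPM, those of epithelial markers at or below 0.324 CPM and those of monocyte markers at or below 1.28 CPM. Mitochondrial genes held 0.351% and 0.307% of fragments without ILF2 shRNA and 0.516% and 0.463% with it, and the part of this in the results below was not tested. The replicates are called independent by the submitters without saying of what, and the p-values cover no spread beyond that among these samples.

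PTP4A3 (ENSG00000184489, GRCh37 chromosome 8, 142402093 to 142441620, plus strand) was the member whose level differed most between the groups. Its fragments numbered 4442 and 4085 with the non-silencing hairpin, against 1492 and 1746 with ILF2 shRNA. On the CPM scale these were 60.0 and 56.7 against 23.4 and 25.2. Both ILF2 shRNA libraries lay far below both non-silencing libraries, and the replicates of a group were close together, with a coefficient of variation of 3.97% and 5.27%. The counting error of the smallest of the 4 counts was 2.59%, so the level was read with little sampling noise. The log2 fold change of the CPM level was -1.26 (SE 0.08), which leaves 41.7% of the non-silencing level. Of 9094 genes that averaged 10 CPM or more, 3 had a log2 fold change this low or lower, counting PTP4A3 itself and ILF2.

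PTP4A1 (ENSG00000112245, chromosome 6, 64231666 to 64293492, plus strand), whose product was first described in regenerating liver, was slightly higher. The non-silencing libraries held 7821 and 6754 of its fragments, and the ILF2 shRNA libraries 7749 and 7471. Scaled to CPM they were 106 and 93.7 against 122 and 108. The ranges did not overlap, but non-silencing replicate 1 lay close to ILF2 shRNA replicate 2. The log2 fold change was 0.20 (SE 0.07), and it ran from 0.12 to 0.29 when each library was left out in turn.

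PTP4A2 (ENSG00000184007, chromosome 1, 32372022 to 32410457, minus strand), the member expressed across most tissues, had the smallest difference of the 3. Fragments of PTP4A2 numbered 5911 and 6207 without and 5471 and 5756 with ILF2 shRNA. The CPM values were 79.8 and 86.1 against 85.8 and 83.2, and both ILF2 shRNA libraries lay between the non-silencing ones. The log2 fold change was 0.03 with a 95% interval from -0.11 to 0.16.

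For the genes outside the family, a rise or fall was called where the adjusted p of edgeR's quasi-likelihood test was under 0.05, which held for 20.3% of all tested genes (10.2% higher and 10.1% lower). PTP4A3 and PTP4A1 lie past that threshold, 2 of 3 members. As this contrast chose the family, the count is no test of it and nothing is read from it. The groups did not overlap in 2 of the 3 members, as in 56.5% of tested genes. ILF2 shRNA gave the lower pair for PTP4A3, as in 28.0% of tested genes, and the higher pair for PTP4A1, as in 28.5%. PTP4A1 did not pass the threshold with DESeq2, with upper-quartile factors, after removal of a GC and length trend, with the replicate block and when either non-silencing library or ILF2 shRNA replicate 1 was left out. The plot of the members by library shows these values.

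**Figure D1:**
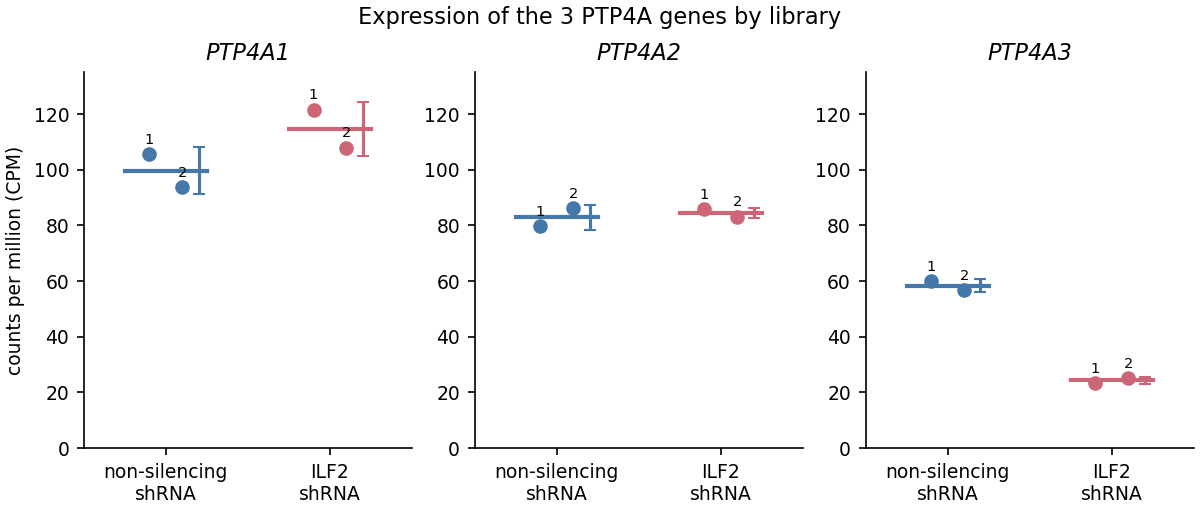
CPM of PTP4A1, PTP4A2 and PTP4A3 in each library (points, numbered by replicate), with the group mean (line) and SD over 2 libraries (bar). PTP4A3 goes from 58.3 to 24.3 CPM on average, while PTP4A2 stays between 79.8 and 86.1 CPM in every library.

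Levels of different genes were compared per kilobase, as CPM per kilobase of counted exon (FPKM). In the non-silencing libraries PTP4A3 stood at 30.9 and 29.2 FPKM, PTP4A1 at 18.2 and 16.2 and PTP4A2 at 12.4 and 13.4. The 3 genes did not overlap in these libraries, and PTP4A3 was the highest on this scale. With ILF2 shRNA, PTP4A1 was highest at 21.0 and 18.6 FPKM. PTP4A2 (13.3 and 12.9 FPKM) and PTP4A3 (12.0 and 13.0 FPKM) then overlapped and could not be ordered. PTP4A3 made up 49.9% ± 0.371 of the summed FPKM of the family in the non-silencing libraries and 27.6% ± 2.24 in the ILF2 shRNA libraries (SD, n = 2). The sum itself went from 60.1 ± 1.94 to 45.5 ± 1.30 FPKM (SD, n = 2).

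The order of the members rests on the length used. The counted exons join all annotated transcripts and span 5796 bases for PTP4A1 and 6431 for PTP4A2 but 1943 for PTP4A3. The longest coding transcripts in the newer annotation have 4711, 3910 and 3241 bases. Divided by those, PTP4A3 was the lowest of the 3 in all 4 libraries, with 18.5 and 17.5 in the non-silencing and 7.22 and 7.78 FPKM in the ILF2 shRNA libraries. This scale works against PTP4A3, whose fragments were counted over 1943 bases but divided by 3241. PTP4A1 and PTP4A2 were counted over more bases than they were divided by, which raises them. PTP4A1 and PTP4A2 then overlapped in the non-silencing libraries. The share of PTP4A3 was 29.8% without and 14.1% with ILF2 shRNA on that scale. As a length is a constant for each gene, it sets the size of the share and the rank, and the fall in share restates the fold changes. In the newer annotation PTP4A3 also reaches 934 bases further downstream, and fragments there were not in the counts.

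**Figure D2:**
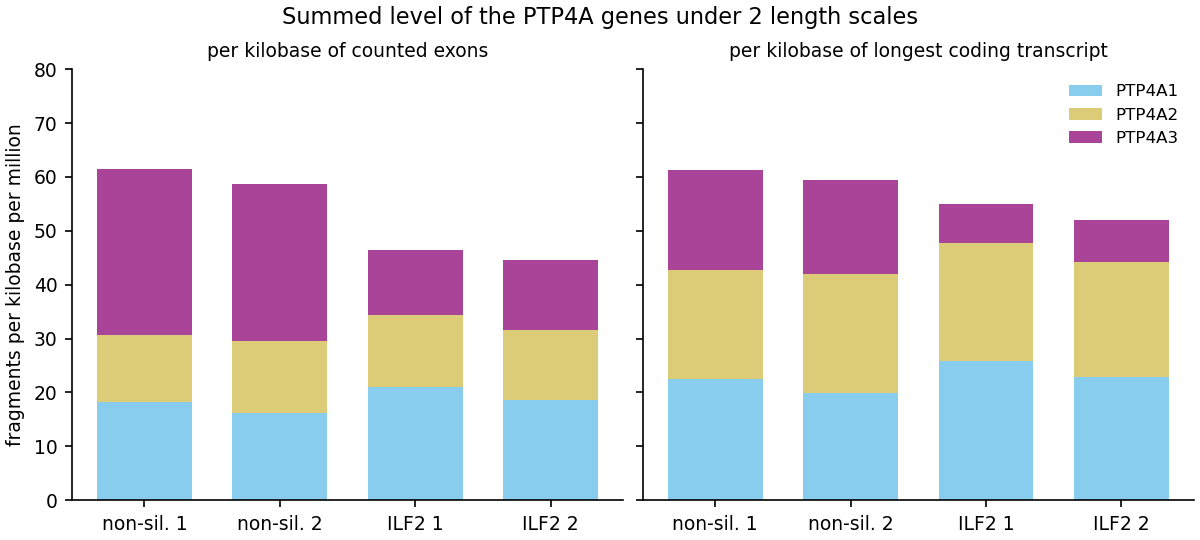
Summed level of the PTP4A genes in each library, divided by the length of the counted exons (left) or of the longest coding transcript (right), with the segments showing each gene. The PTP4A3 segment is smaller in both ILF2 shRNA libraries on both scales, and it is the largest of the 3 only in the non-silencing libraries on the left.

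PTP4A1 and PTP4A2 have processed pseudogenes, which are copies of their transcripts inserted elsewhere in the genome, and reads that fit both places bear on the counts. Of 9 copies in the files, 7 had at most 4 fragments in any library. PTP4A2P1 (chromosome 17, 40685550 to 40686027) was the exception: it held 302 and 308 fragments without ILF2 shRNA, against 275 and 262 with it. That was 4.55% to 5.11% of the PTP4A2 count in the same library. Per kilobase it stood at 7.92 to 9.03 FPKM, and it differed by -0.05 on the log2 scale (SE 0.12; adjusted p = 0.852 by edgeR). PTP4A2P2 had 17 to 27 fragments per library. The copy PTP4A2P1 matched a PTP4A2 transcript at 97.1% of aligned bases, and a further 16 bases lay in gaps of the alignment. The longest run shared without a difference was 86 bases, longer than a 76-base read. Among read-length stretches without a gap, the one that differs most holds 5 differences, shown in capitals. It lies at chr1:32377306-32377381 (minus strand) and chr17:40685790-40685865 (plus strand). Stretches across a gap were not compared.
PTP4A2: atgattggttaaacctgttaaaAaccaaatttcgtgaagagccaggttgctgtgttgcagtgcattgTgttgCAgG
PTP4A2P1: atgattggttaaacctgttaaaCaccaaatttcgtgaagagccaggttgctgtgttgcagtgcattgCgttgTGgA
This stretch holds the codon of the catalytic cysteine in PTP4A2. A read that lies within the shared run of 86 bases fits both places, so fragments of PTP4A2 and PTP4A2P1 may be uncertain there. How many fragments this concerns, and whether the copy is transcribed, was not tested. No feature in the files whose name marks it as a copy of PTP4A3 was present.

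The surroundings of the 3 genes were examined next, since position played no part in their choice. Within 1 Mb of PTP4A3, 12 features were tested, and edgeR called 0 rises and 3 falls. The median was -0.10 on the log2 scale, against 0.00 over all tested genes, of which 10.2% rose and 10.1% fell. The feature nearest downstream fell with it. ENSG00000271959, a long non-coding RNA gene on the same strand, starts 3.02 kb after the counted end of PTP4A3 (142444645 to 142448054) and was named after its values were seen. Its 58 and 60 fragments without ILF2 shRNA stood against 11 and 17 with it, or 0.783 and 0.833 against 0.173 and 0.246 CPM. These counts are low, but the groups were well apart. The fitted log2 change was -1.93 (SE 0.33), at an adjusted p of 6.3e-06 by edgeR. Over the alternatives that tested it the adjusted p ran from 1.6e-07 to 9.4e-04. It lies outside PTP4A3 also in the newer annotation, which ends the gene at 142442554. Whether its fragments come from transcripts that begin in PTP4A3 was not tested.

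Of the other genes around PTP4A3, DENND3 and PTK2 were the further falls. ENSG00000244998, a non-coding gene that overlaps the start of PTP4A3 on the opposite strand, had 11 to 24 fragments per library and did not pass (edgeR adjusted p = 0.558). SLC45A4, a solute carrier gene 83.7 kb before it, stood at 12.6 and 12.1 CPM in the non-silencing and 12.9 and 12.4 CPM in the ILF2 shRNA libraries, and the groups overlapped. DENND3, which encodes an exchange factor for a Rab GTPase, fell from 41.5 and 40.0 to 34.6 and 35.7 CPM. Its log2 fold change was -0.21 (edgeR adjusted p = 0.0344), and the call ended without either non-silencing library, without ILF2 shRNA replicate 1 and with the replicate block. PTK2, the focal adhesion kinase gene, named after its values were seen, was the remaining one of the 3 falls, at -0.41 on the log2 scale (adjusted p = 0.00998 by edgeR). Its call ended with DESeq2 and when the second library of either group was left out. With the second non-silencing library left out, 1 fall near PTP4A3 was called. TSNARE1, the next protein-coding gene tested downstream, differed by -0.07 on the log2 scale (adjusted p = 0.781 by edgeR).

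Around PTP4A1, 6 features were tested, of which 1 rose and 0 fell, beside 10.2% and 10.1% of all genes. That was EYS, a photoreceptor gene at 0.796 and 0.944 CPM in the non-silencing and 1.84 and 1.98 CPM in the ILF2 shRNA libraries, a log2 difference of 1.13 (SE 0.19; adjusted p by edgeR = 6.6e-06). PHF3, which binds RNA polymerase II and is the nearest protein-coding gene downstream, stood at 131 to 148 CPM, and its groups overlapped. Around PTP4A2, 36 features were tested, of which 0 rose and 3 fell, beside the same 10.2% and 10.1% of all genes, with a median of -0.06. The falls, named after their values were seen, were those of the syndecan gene SDC3 (-0.63), MARCKSL1 (-0.50) and, at no more than 0.333 CPM, HPCA (-1.28). By edgeR their adjusted p was 0.00198, 1.1e-04 and 0.0424 in that order. HPCA had only 5 to 24 fragments per library and an SE of 0.47. How these single calls fared in the alternatives is not reported here. After removal of the GC and length trend, 4 rose and 4 fell around PTP4A2. Its nearest protein-coding gene upstream, KHDRBS1, which encodes the RNA-binding protein SAM68, differed by -0.18 on the log2 scale (adjusted p = 0.0640 by edgeR). The plot by distance shows the 3 regions.

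**Figure D3:**
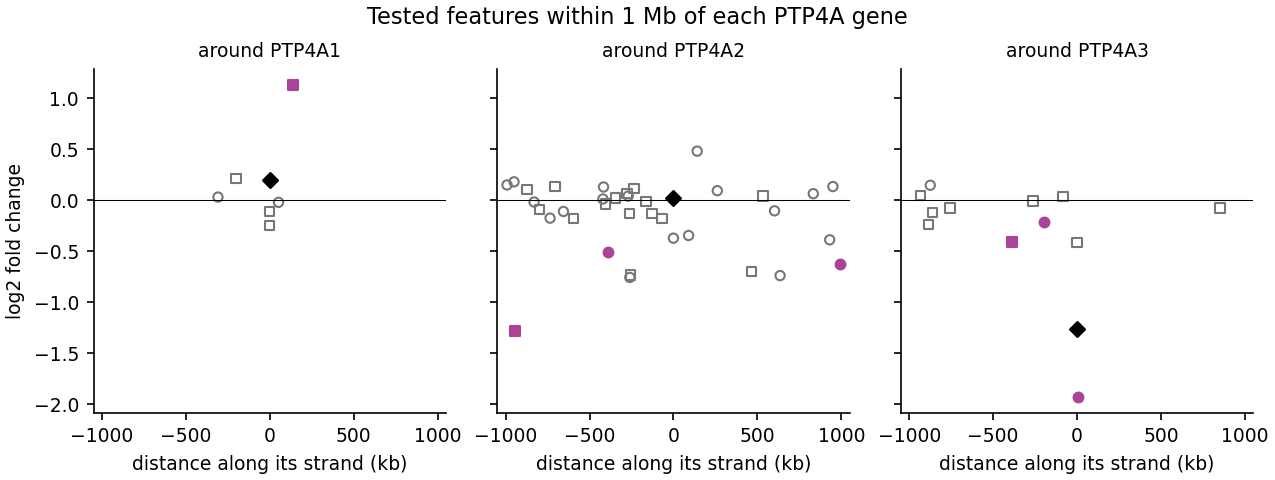
Log2 fold change, ILF2 shRNA over non-silencing shRNA, of tested features within 1 Mb of each PTP4A gene, by distance in kb along that gene's strand. Diamonds are the PTP4A genes, circles features on the same strand and squares on the other, and filled symbols passed edgeR's test. The filled circle under PTP4A3 at -1.93 is the non-coding gene 3.02 kb downstream.

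The partners of PRL phosphatases came next, from lists drawn up from general knowledge. The CNNM genes, whose products are bound by PRL phosphatases, did not pass the test in either direction. CNNM2 had 16.2 and 15.9 CPM in the non-silencing and 16.8 and 16.6 CPM in the ILF2 shRNA libraries. CNNM3 had 21.9 and 21.3 against 22.7 and 23.5 CPM, and CNNM4 had 29.2 and 26.5 against 25.4 and 27.6 CPM. Their log2 fold changes were 0.06, 0.10 and -0.07 with SEs of 0.09, 0.08 and 0.08. CNNM1 had 0 fragments in all 4 libraries. Of the 4 tested genes in this list, which also holds the CNNM-binding GTPase gene ARL15, 0 were called by edgeR or DESeq2, and 0 had an unadjusted p under 0.05. Of 14 other magnesium transport genes tested, 4 rose and 0 fell, or 28.6% beside 20.3% of all genes, with a median of 0.03 on the log2 scale. They were NIPAL3 (0.26), the mitochondrial magnesium channel gene MRS2 (0.22), SLC41A2 (0.22) and SLC41A3 (0.21). All 4 calls ended when either non-silencing library was left out and with the replicate block, and 2 remained with DESeq2.

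Genes of protein prenylation and CaaX processing were examined next. The list holds the enzymes that act on CaaX ends and also those of the separate route that prenylates Rab proteins. Of 13 tested, 1 rose and 2 fell (23.1% beside 20.3% of all genes), with a median of -0.02. After removal of the GC and length trend 4 rose, and with the replicate block 0 rose. The number of rises also changed when some of the libraries were left out. RABGGTB, which encodes the beta subunit of the Rab geranylgeranyl transferase, fell from a mean of 124 ± 4.92 to 89.8 ± 7.35 CPM (SD, n = 2), or by 0.47 on the log2 scale (SE 0.07), at an adjusted p of 5.2e-07 by edgeR. ZMPSTE24, which encodes a CaaX protease, fell by 0.28, though not once non-silencing replicate 2 was left out. CHML, an escort protein gene for Rab prenylation, rose by 0.26, which was not called with the replicate block or when non-silencing replicate 1 or ILF2 shRNA replicate 1 was left out. The subunit genes of the farnesyl transferase, FNTA and FNTB, were not called.

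Genes for proteins reported as substrates or partners of the PTP4A3 product showed 1 fall and 0 rises among 12 tested (8.33% beside 20.3% of all genes), with a median of -0.08. With ILF2 shRNA replicate 1 left out there were 2 falls and 1 rise, and after removal of the GC and length trend 2 of each. The gene that fell was KCNN4, a calcium-activated potassium channel gene, which went from 67.2 and 63.4 to 48.8 and 50.7 CPM. Its log2 fold change of -0.39 (SE 0.07) had an adjusted p of 2.8e-05 by edgeR, and the call held in every alternative setting that tested it. Among 11 reported regulators of PTP4A3, 1 rose and 0 fell (9.09%), with a median of 0.03, and 2 rose and 2 fell after removal of the GC and length trend. The gene that rose was MEF2C, a transcription factor gene reported to activate PTP4A3, at 311 and 325 CPM in the non-silencing and 428 and 404 CPM in the ILF2 shRNA libraries. Its log2 fold change of 0.39 (SE 0.07) had an adjusted p of 7.5e-06 by edgeR and was opposite in sign to that of PTP4A3. STAT3, a transcription factor gene in that list, was not called.

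SRC family kinases are reported downstream of PRL phosphatases. Of 8 tested SRC family genes, 2 rose and 1 fell (37.5% beside 20.3% of all genes), with a median of -0.06, and those 3 were at low levels. With ILF2 shRNA replicate 1 left out the counts were 1 and 2, and SRC was not among the falls. After removal of the GC and length trend 4 fell, and with DESeq2 0 rose and 0 fell. SRC had 1.54 and 1.18 CPM in the non-silencing and 0.863 and 0.982 CPM in the ILF2 shRNA libraries, and it fell by 0.56 on the log2 scale (SE 0.21; adjusted p = 0.0495 by edgeR). The call of SRC ended in 8 alternative settings, among them DESeq2 and the omission of non-silencing replicate 1 or either ILF2 shRNA library. FGR rose by 0.74 at 0.860 to 1.60 CPM, and BLK rose by 1.85 at no more than 0.298 CPM in any library. Neither was called by DESeq2 or without non-silencing replicate 2.

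Genes of other cysteine-based phosphatase families give a view of how PTP4A3 stood among its relatives. Over the 8 phosphatase lists 80 genes were tested, of which 13 rose and 13 fell (32.5% beside 20.3% of all genes), with a median of 0.03 on the log2 scale. Leaving out non-silencing replicate 1 gave 6 and 7, and leaving out replicate 2 of that group gave 4 and 7. With the replicate block 8 rose. The log2 fold changes ran from -1.22 to 1.09, so no estimate was as low as that of PTP4A3. The lowest was PTPRT, at no more than 0.418 CPM in any library, with a 95% interval from -2.01 to -0.43. Its estimate reached -1.50 among the alternatives, so the order of PTPRT and PTP4A3 is not settled. DUSP4, at -0.73, was the lowest of the 53 that averaged 10 CPM or more. As PTP4A3 was chosen for its fall, this is a description of its place and not a test.

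The phosphatase genes with the firmest changes were spread over several classes. In the MAP kinase phosphatases 2 of 9 rose and 1 fell (33.3% beside 20.3% of all genes). Leaving out non-silencing replicate 2 gave 1 and 1, and leaving out ILF2 shRNA replicate 2 gave 1 and 2. DUSP4 had 111 and 110 CPM in the non-silencing and 66.2 and 66.8 CPM in the ILF2 shRNA libraries (log2 fold change -0.73, SE 0.07; edgeR adjusted p = 1.8e-12). DUSP5 rose from 808 and 823 to 1098 and 1190 CPM (0.49, SE 0.07; edgeR adjusted p = 4.2e-08). Of 15 non-receptor tyrosine phosphatases, 3 rose and 0 fell, or 1 rise without non-silencing replicate 2, and 1 gene fell without ILF2 shRNA replicate 2. PTPN22, which encodes a negative regulator of lymphocyte receptors, had 4.18 and 3.36 against 7.09 and 7.40 CPM, a rise of 0.94 (adjusted p = 6.4e-09 by edgeR). Of 16 receptor types, 2 rose and 2 fell, or 1 rise and 1 fall without either non-silencing library or ILF2 shRNA replicate 1, and 1 rise and 2 falls without ILF2 shRNA replicate 2. PTPRC, the CD45 gene, went from 7.94 and 8.96 to 15.6 and 13.8 CPM (0.80; edgeR adjusted p = 1.8e-09), and PTPRD had a log2 fold change of -0.48. Of 13 atypical dual-specificity phosphatases, 1 rose and 2 fell, and DUSP26 went from 2.16 and 2.07 to 1.10 and 0.997 CPM (-1.01; edgeR adjusted p = 1.6e-05). In that class 0 rose and 1 fell when non-silencing replicate 1 or 2, or ILF2 shRNA replicate 1, was left out and with the replicate block.

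The remaining classes were smaller. Of 14 genes of the myotubularin family, 3 rose and 2 fell, with 1 rise when the block was added. Fewer rose also when either non-silencing library was left out. MTMR11 went from 4.39 and 4.91 to 2.84 and 2.85 CPM (-0.71) and SBF2 from 17.0 and 17.3 to 13.4 and 12.0 CPM (-0.43), and both falls held in all settings. The CDC25 phosphatases activate cyclin-dependent kinases, and their list also holds ACP1. CDC25A (-0.32) and CDC25B (-0.24) fell among 4 tested genes, the first not without non-silencing replicate 2 and the second not without non-silencing replicate 1 or with the block. Of 3 slingshot genes, which act on cofilin, SSH1 rose by 0.30 and SSH3 fell by 0.71. SSH1 was not called without non-silencing replicate 2, nor SSH3 with DESeq2 or once ILF2 shRNA replicate 2 or non-silencing replicate 1 was left out.

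**Figure D4:**
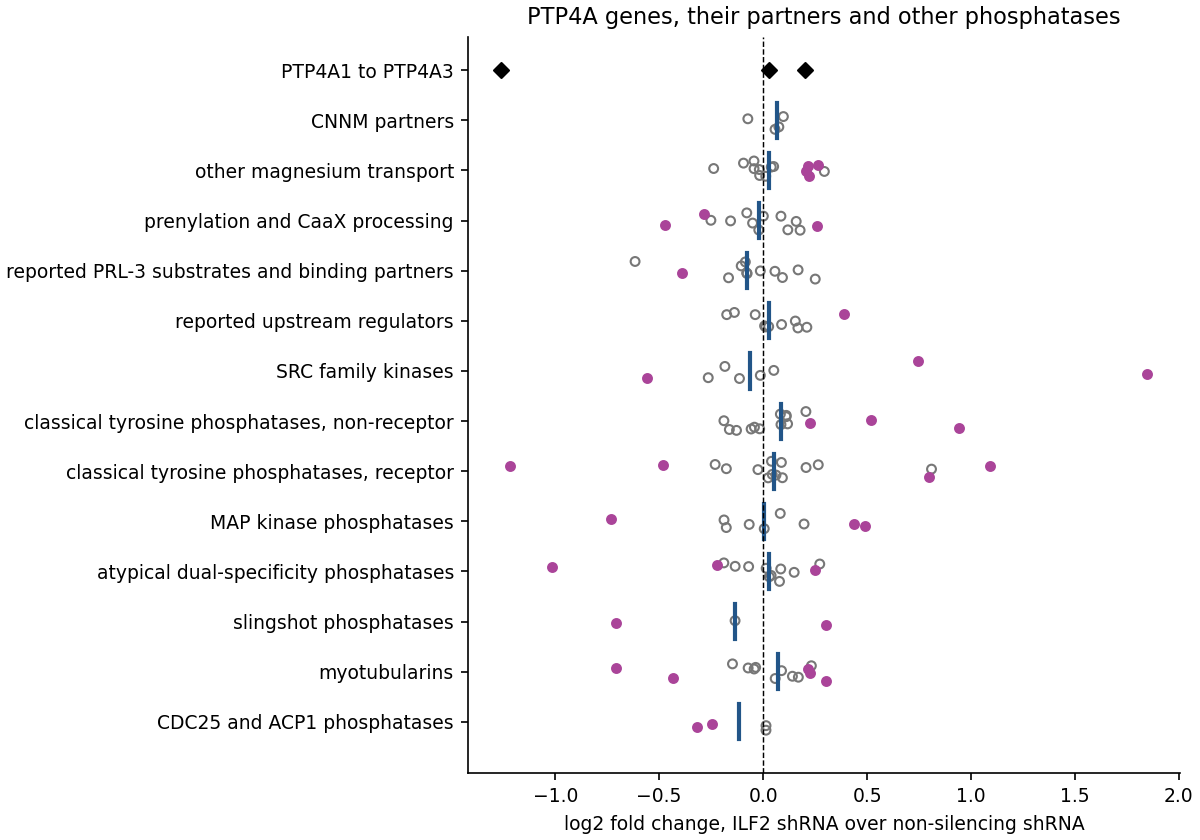
Log2 fold change of the PTP4A genes (diamonds) and of tested genes in each list shown (circles, filled where edgeR's adjusted p was under 0.05), with the list median as a bar and the median of all tested genes as a dashed line. PTP4A3 at -1.26 lies to the left of every phosphatase gene shown. The lowest of these, PTPRT at -1.22, has a 95% interval from -2.01 to -0.43.

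Finally, the genes whose values over the 4 libraries were most like those of each member were listed. The measure was the root mean square difference of log2 CPM after each gene was centred on its own mean, over 8843 other protein-coding genes with an average of at least 3 log2 CPM. For PTP4A3 the 4 nearest were MB, the myoglobin gene (difference 0.0283), FAM43A (0.0600), SECTM1 (0.0735) and AMOTL1 (0.0845). MB had 52.5 and 51.7 CPM in the non-silencing and 21.1 and 23.3 CPM in the ILF2 shRNA libraries, which is close to the values of PTP4A3. They lie on chromosomes 22, 3, 17 and 11, none of them that of PTP4A3. For PTP4A1 the nearest were POU2AF1, HNRNPH3, UBE2K and TPP1, at 0.0223 to 0.0264. All of these were highest in ILF2 shRNA replicate 1 and lowest in non-silencing replicate 2, as PTP4A1 was. For PTP4A2 they were ELP2, PIK3C3, GLRX3 and RPL5, at 0.00538 to 0.00869 and with log2 fold changes of 0.02 to 0.04. With 4 libraries in 2 groups, likeness mostly reflects an equal difference between the groups, and it is given as a description.

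**Figure D5:**
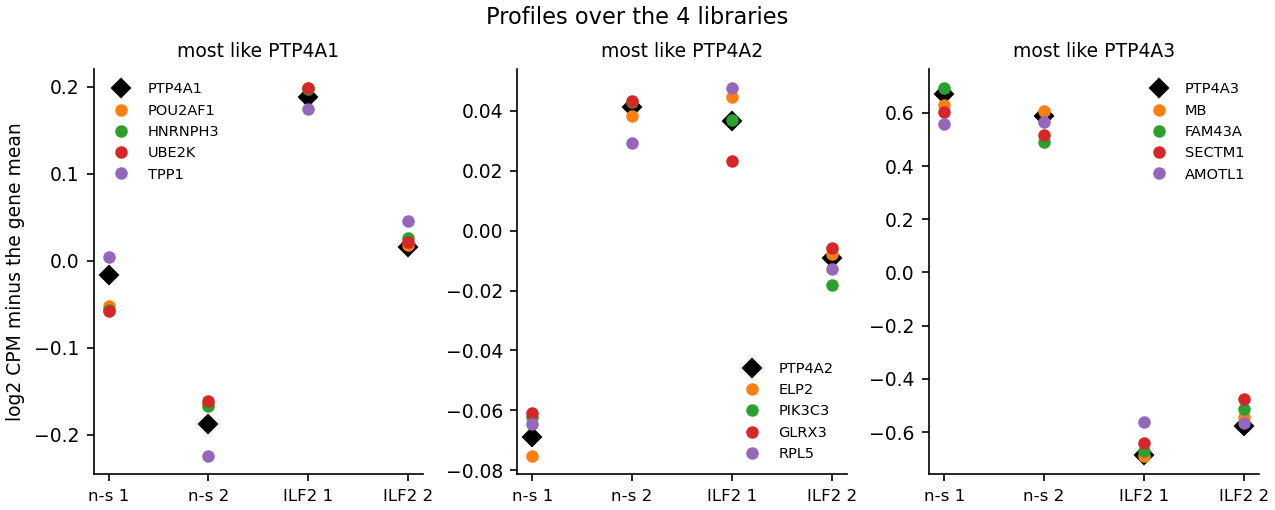
Log2 CPM in each library minus the gene's mean over the 4 libraries, for each PTP4A gene (diamonds) and the 4 protein-coding genes most like it (circles). The vertical axes differ between panels: the spread is under 0.1 around PTP4A2 on either side and reaches beyond 0.6 around PTP4A3.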

How the data were processed

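The deposited files give 1 raw count of fragments for each gene. Per the file headers the authors ran featureCounts (from Subread 1.4.6-p2) on paired fragments with strand setting 2 and the Ensembl release 75 annotation of GRCh37. STAR 2.3.0 and SAMtools 0.1.19 are listed in the submitters' processing notes, while the design text names Tophat2. The headers record no option for fragments with several places. Symbols were matched by gene ID for 55665 of 63677 genes. Exon lengths, also deposited, gave FPKM.

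Counts were fitted for 19142 genes in edgeR 4.0.16 (R 4.3.3) with TMM factors, filterByExpr (minimum count 10), robust dispersions, a two-sided quasi-likelihood test, a single term for group, and Benjamini-Hochberg adjustment. The biological coefficient of variation was 5.38%, with 2 residual degrees of freedom. SEs come from the F statistic. The procedure was tested on simulated counts with the same dispersion for all genes, which does not cover genes with a larger spread.

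The members and lists were chosen with earlier results of these data known. The genes named were ILF2, all PTP4A features, the CNNM genes, up to 4 called genes with the smallest adjusted p in each list (or the 2 most abundant), the 2 nearest tested protein-coding genes on either side of each member, overlapping features, and the 4 most alike genes. Not every gene under the rule is printed. Alternatives were DESeq2 1.42.0, limma-voom (limma 3.58.1), other scaling factors and filters, small RNAs left out, a replicate block, each library left out and, added after seeing the data, removal of a GC and length trend (mgcv 1.9.3). List genes not matched by symbol (PTPN20, DUSP14, TPTE, TRAC) were not analysed here, and some listed genes and lists are not reported here, though the pooled counts include them.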

Additional observations from a re-analysis of the deposited data

How the results depend on the processing

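The log2 fold change of PTP4A3 ran from -1.32 to -1.21 and that of PTP4A2 from -0.03 to 0.08 over all 13 alternatives. That of PTP4A1 ran from 0.12 to 0.29 when 1 library was left out and moved by less than its SE otherwise. Over all genes 1960 were higher and 1925 lower. These became 1291 and 1297 with the replicate block, 3031 and 2846 after removal of the GC and length trend, and 1029 to 1899 and 1070 to 1822 when 1 library was left out. In the gene lists together 23 were higher and 18 lower. With the replicate block 13 were higher, after the GC and length trend 30 were lower, and without 1 library the range was 8 to 19 higher and 11 to 19 lower. Near the PTP4A genes 1 was higher and 6 lower, with 5 higher after the GC and length trend and 3 to 6 lower without 1 library. The share of PTP4A3 was 24.2% and 10.9% with no division by length and 29.8% and 14.1% with the longest coding transcript, against 49.9% and 27.6%. The cause of the changes with the block and the trend was not tested. Deviations of libraries with the same replicate number had a correlation near 0 across genes, so the numbers were not taken as pairs, and the replicate block is given as a setting only. Of 76 named genes, 970 alternative values were computed, of which 111 lost and 6 gained the call and 0 called values changed sign. Genes under about 1 CPM, such as BLK and PTPRT, rest on few fragments.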

Other observations

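Among the marker genes used to check the cell type, CD3E, which encodes a chain of the T cell receptor complex, stood out and was named after its values were seen. It had 8.22 and 7.49 CPM in the non-silencing and 16.1 and 17.0 CPM in the ILF2 shRNA libraries. On the log2 scale the rise was 1.07 (SE 0.09), at an adjusted p of 8.2e-14 by edgeR, and the adjusted p ran from 1.1e-26 to 2.2e-10 over the alternatives. The other T cell genes examined, CD3D, CD3G, CD8A and CD4, had at most 5 fragments in any library.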
